A study of Mus musculus with 8 samples.

Results

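The genes described here are 30 genes published as targets of the microRNA miR-155, beyond the handful that studies of this microRNA usually turn to. They encode adaptors and kinases of inflammatory signalling, DNA-binding transcription factors, SMAD proteins, corepressors, cytokine receptor chains, regulators of mTOR, growth suppressors and a few proteins of the cytoskeleton and of transport. They were found by gene name on mouse expression arrays, with Tab2 under its older name Map3k7ip2. All 30 were measured, among 24171 named genes and 44170 features, a feature being a set of probes designed to 1 transcript. Each gene is represented by its brightest feature, judged by mean log2 intensity across all 8 arrays. A difference in log2 intensity of 1 is a doubling.

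A microRNA is a short RNA that guides an Argonaute protein to messenger RNAs, most often through its seed, the bases near its 5′ end, which pair with complementary letters in the 3′ untranslated region. Pairing lowers translation of the target and often the amount of its messenger RNA, so the messenger RNA of a target can be higher where the microRNA is missing, although the effect on any single target is usually small. miR-155 is processed from the transcript of the BIC gene (Mir155hg), is induced in activated lymphocytes and macrophages, and is needed for normal germinal centre and T cell responses. The published evidence for the 30 genes comes from many cell types, not from spleen alone.

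The mature strand that carries the targeting seed, and the hairpin from which it is cut, are shown because every gene described here is linked to them. Both come from RefSeq, build GRCm38.p6, plus strand, chr16:84714143-84714165 for the mature strand and chr16:84714140-84714204 for the hairpin. Capitals mark the seed (bases 2 to 8) in the mature strand and the 2 mature strands in the hairpin.
mmu-miR-155-5p: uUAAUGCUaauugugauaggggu
hairpin: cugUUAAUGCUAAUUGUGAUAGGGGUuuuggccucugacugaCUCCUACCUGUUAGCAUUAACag
A messenger RNA pairs with this seed through the letters AGCAUUA. No other mature mouse microRNA among the 1679 names in the RefSeq table has the seed UAAUGCU. The 3′ untranslated regions of the 30 genes were not analysed here, so where such letters lie in them is not given.

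Total RNA of 8 spleens was hybridised to 1-colour NimbleGen arrays. The 4 miR-155 knockout animals were Mim1-5 and Mim1-6, labelled female, and Mim2-2 and Mim2-3, labelled male, so that sex and name prefix cannot be told apart among them. The 4 wild-type animals were WT-1 and WT-3, labelled female, and WT-2 and WT-4, labelled male. The sources used here give no knockout allele, strain, age or treatment for either genotype. Values follow this order throughout, Mim1-5, Mim1-6, Mim2-2 and Mim2-3 for the knockout and WT-1 to WT-4 for the wild type. Each array was taken as 1 animal, and p-values measure the spread between these arrays, whose small number limits the precision.

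Array medians were 112.1 to 119.1 on the linear scale, with random probes at log2 4.94 to 5.24. The arrays of Mim2-2 and Mim2-3 stood apart from the rest, with correlations of 0.811 to 0.877 to the other 6, which correlated with each other at 0.911 to 0.943. The labelled sexes were not borne out by sex-linked genes, since Xist read 8.35 or more on every array and the Ddx3y means of the sexes were 7.82 (female) and 7.76 (male). Ddx3y was 8.39 or more on all knockout arrays and at most 7.33 on all wild-type arrays. Markers of splenic B cells were bright, but so were markers of mammary epithelium, a tissue outside the label. The 12 mammary genes had mean log2 intensities of 10.49, 10.90, 7.55 and 8.29 in the knockout and 10.58 to 10.99 in the wild type, and 11 of them differed in the negative direction. The mean of 6 adipocyte genes was 7.21, 7.28, 11.07 and 10.45 in the knockout and 7.57 to 7.75 in the wild type, with all 6 differences positive. The mean of 9 exocrine pancreas genes was 7.16 to 8.25 in the knockout and 5.88 to 6.00 in the wild type, with all 9 differences positive. The part of these tissues in the results that follow was not tested beyond the alternatives named beside them, and fewer cells of a type cannot be told apart from less RNA per cell.

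The feature of BIC, on chromosome 16 from 84713276 to 84715489 in build MM9, read 7.51, 5.37, 5.28 and 5.46 in the knockout and 5.27, 4.84, 4.85 and 5.63 in the wild type. Mim1-5 was highest, and the other values lay near the random probes. The difference of 0.76 ± 0.50 (SE) had an adjusted p of 0.521 in limma. It is no check of the genotype, because the place of its probes with respect to the deletion is unknown.

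As a group the 30 targets did not read higher in miR-155 knockout spleen. Knockout minus wild type was above 0 for 16 genes and below 0 for 14, against 53.9% of all named genes above 0, and the median difference was 0.08 on the log2 scale against 0.06 for all named genes. None of the 30 passed an adjusted p of 0.05 in limma (Benjamini-Hochberg over all features), and the alternative variance model (trend, robust) also called 0 of them. Across the whole array 0 features passed, which is 0% of those tested, while that second model called 16. At an unadjusted p under 0.05 there were 3 genes, all higher in the knockout, namely Peli1, Pdcd4 and Tle4. These are 10.0% of the 30, and of all named genes 14.3% met the same threshold in either direction and 7.7% in the higher direction. The knockout and wild-type arrays did not overlap for 2 of the 30 (6.67%), Peli1 and Tle4, both higher, against 7.82% of all named genes in either direction and 5.27% in the higher direction. Both shares lie below the background of either direction and above that of the higher direction, as taken over genes of every brightness. The number of the 30 at an unadjusted p under 0.05 became 0 without both Mim2 arrays, where the labelled females alone give the difference. It was likewise 0 with the mammary mean as a further term, without Mim2-2 or without WT-4. The count was 1 without Mim2-3 and 5 without Mim1-6. Without Mim1-6 Tle4 dropped out, while Ets1, higher in the knockout, and Gabpa and Arntl, lower, came in. Without WT-1 Peli1, Pdcd4 and Tle4 all lost that threshold, while Gabpa and Phf17 met it.

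**Figure D1:**
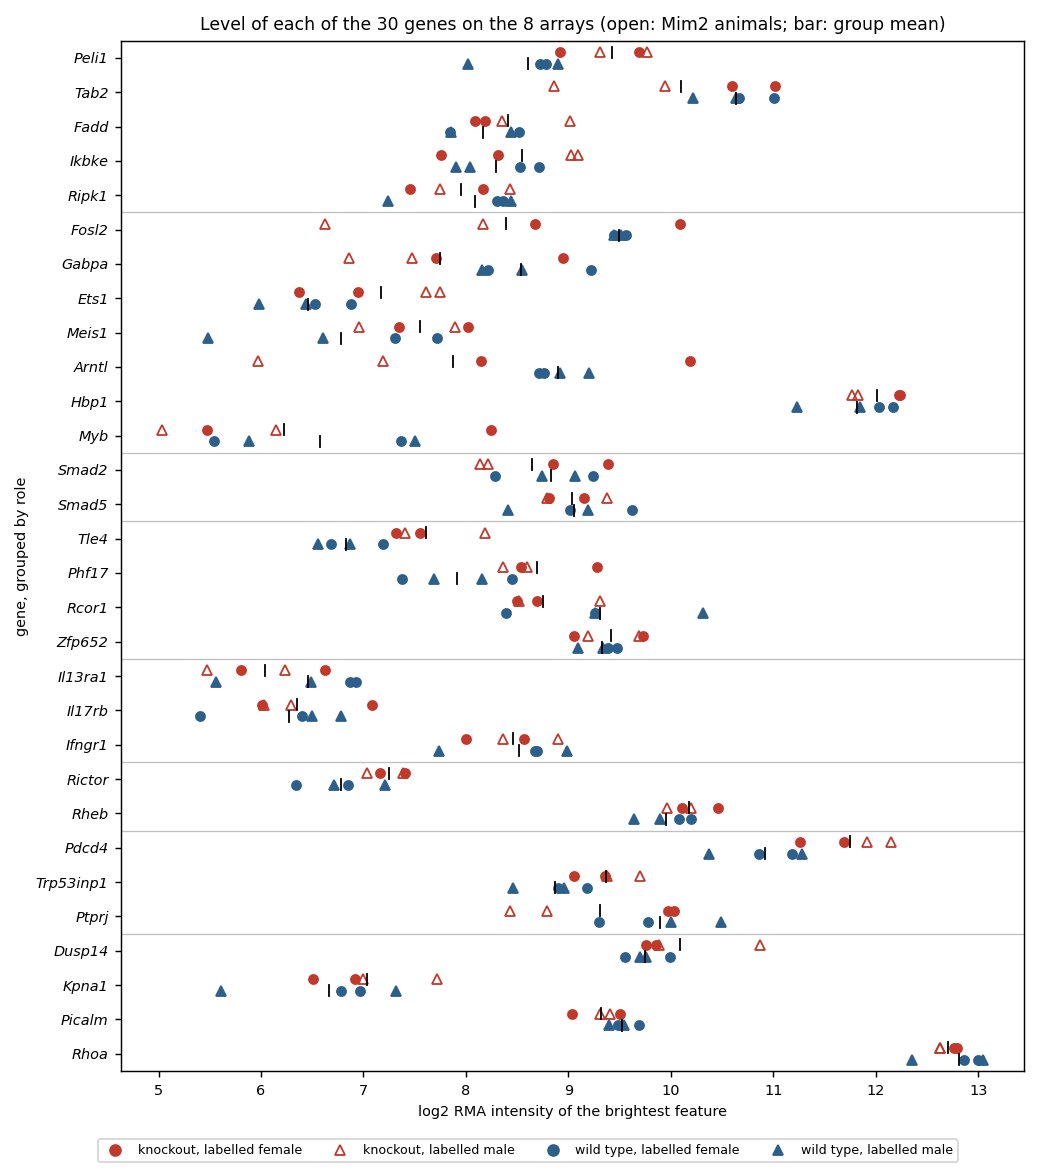
Log2 RMA intensity (horizontal axis) of the brightest feature of each of the 30 genes (vertical axis, grouped by role) on the 8 arrays, with circles for labelled females, triangles for labelled males, open symbols for the Mim2 animals and black bars for the mean of each genotype. The genotypes overlap for 28 of the 30 genes, the exceptions being Peli1 and Tle4, while in Fosl2 and Arntl the 4 wild-type arrays lie close together and the 4 knockout arrays are spread widely.

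Set against genes of like brightness, the 30 genes showed no common direction. Of 5 equal classes of mean log2 intensity, the dimmest held none of them and the second brightest held 15. The share of other genes at an unadjusted p under 0.05 in limma rose with brightness. From the dimmest class to the brightest it was 5.34%, 10.9%, 15.2%, 19.9% and 20.4%. At that threshold were 1 of 15 members in the second brightest class, 1 of 7 in the brightest, 1 of 5 in the middle and 0 of 3 in the second dimmest. In the second brightest class the median difference of the 15 was -0.06, against -0.04 for the 4819 other genes. Of the 15 genes 6 were above 0, against 47.3% of the others. In the brightest class the 7 genes Tab2, Rheb, Hbp1, Rhoa, Pdcd4, Ptprj and Dusp14 had a median of 0.20, against -0.02 for the others. Of these 7 genes 4 were above 0, against 48.7% of the others. In the middle class all 5 genes (Ets1, Meis1, Rictor, Tle4 and Kpna1) read higher, against 55.5% of the others, with a median of 0.71 against 0.09. In the second dimmest class Myb, Il13ra1 and Il17rb had a median of -0.35 against 0.16, and 1 of the 3 was above 0, against 60.2% of the others.

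**Figure D2:**
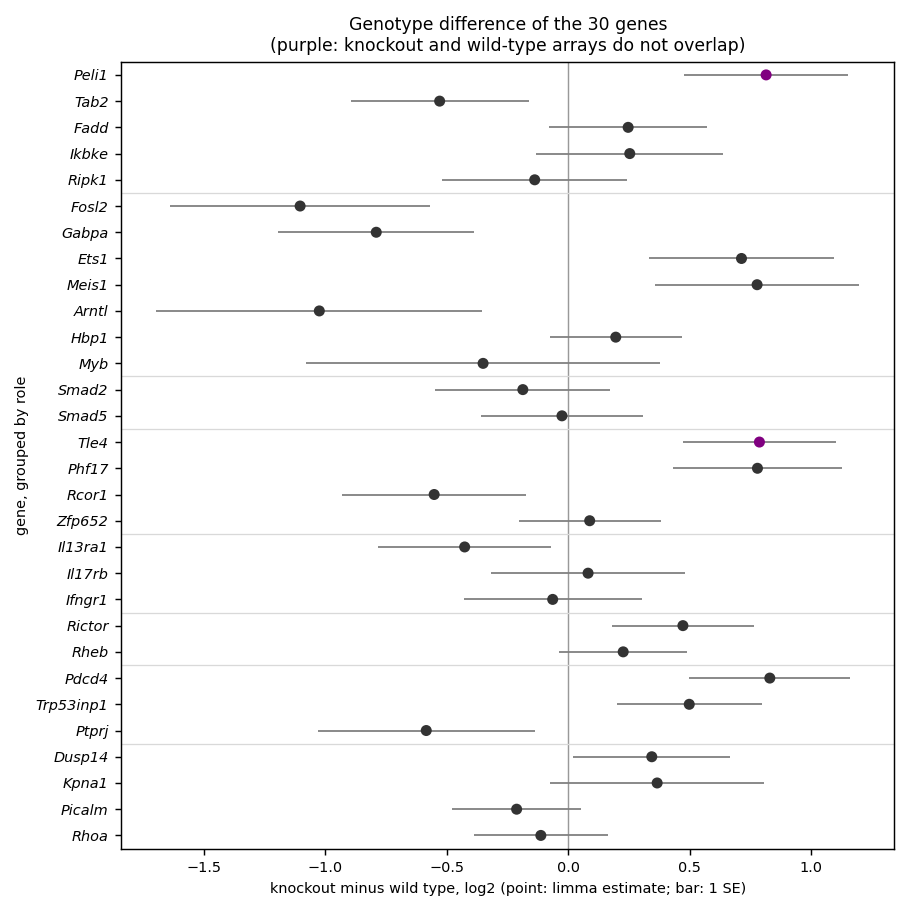
Knockout minus wild type on the log2 scale (horizontal axis) for the 30 genes (vertical axis, grouped by role), as the limma estimate with a bar of 1 SE, with purple points where the 2 genotypes do not overlap. The estimates run from -1.10 for Fosl2 to 0.83 for Pdcd4, with 16 above and 14 below 0.

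Among the 5 genes of inflammatory signalling 1 was at an unadjusted p under 0.05. Peli1 encodes a ubiquitin ligase that acts downstream of Toll-like and interleukin 1 receptors and restrains T cell activation, and its feature lies on chromosome 11 from 21035471 to 21050330. Its log2 intensity was 9.68, 8.92, 9.77 and 9.31 in the knockout and 8.73, 8.90, 8.78 and 8.02 in the wild type. Every knockout array lay above every wild-type array, but Mim1-6 did so only narrowly over WT-2. The difference was 0.81 ± 0.34 (SE), with an unadjusted p of 0.038 and an adjusted p of 0.341 in limma. It was 0.55 among the females and 1.08 among the males as labelled. The other 3 Peli1 features differed by -0.20, 0.30 and 0.34, so the value of the brightest was not shared by all, and the mean of the 4 features differed by 0.31.

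Tab2 encodes the adaptor that couples ubiquitin chains to the kinase TAK1. It read 11.01, 10.60, 9.94 and 8.86 in the knockout and 11.00, 10.22, 10.66 and 10.64 in the wild type. Both Mim2 arrays were the lowest of the 8, while Mim1-5 was the highest, level with WT-1, and Mim1-6 lay among the wild-type arrays. The difference was -0.53 ± 0.37 (SE), with an adjusted p of 0.540 in limma, made up of -0.03 in females and -1.03 in males. A second Tab2 feature differed by -1.22.

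Ikbke encodes the kinase IKK-epsilon, which with TBK1 drives interferon induction. Its values were 8.31, 7.76, 9.02 and 9.09 in the knockout and 8.71, 7.90, 8.52 and 8.04 in the wild type. The Mim2 arrays were here the highest of the 8 and Mim1-6 the lowest. The difference was 0.25 ± 0.39 (SE, adjusted p = 0.797 in limma), with opposite signs in females (-0.58) and males (1.09).

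Ripk1 and Fadd encode the kinase and the death-domain adaptor that join tumour necrosis factor receptors to cell survival or cell death. Ripk1 read 8.17, 7.45, 8.43 and 7.74 in the knockout and 8.31, 8.44, 8.36 and 7.24 in the wild type. Its lowest array was wild-type, WT-4, far below the other 3 of its genotype. Fadd read 8.19, 8.09, 9.01 and 8.35 against 8.52, 7.85, 7.85 and 8.44, with Mim2-2 highest and the remaining arrays mixed. Neither difference, -0.14 ± 0.38 (SE) for Ripk1 and 0.25 ± 0.32 (SE) for Fadd, exceeded its error. The features of both genes differed among themselves in sign, 1 of 3 being above 0 for Ripk1 and 1 of 2 for Fadd.

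Partners of these 5 proteins gave 5 genes higher and 1 lower at an unadjusted p under 0.05 out of 24 measured, and 0 passed after adjustment in limma. All named genes at that threshold amount to 7.7% higher and 6.62% lower. The median of the 24 was 0.36. Traf5, a receptor-associated adaptor prominent in lymphocytes, read 10.43, 10.21, 11.37 and 11.65 in the knockout and 9.53, 10.16, 9.59 and 10.13 in the wild type. Its difference was 1.06 ± 0.28 (SE, adjusted p = 0.266 in limma), without overlap. Ikbkb, the catalytic kinase of the canonical NF-kB pathway, differed by 0.96 ± 0.33 (SE, adjusted p = 0.299) and Tbk1, the relative of Ikbke, by 0.76 ± 0.28 (SE, adjusted p = 0.314), both from limma. Markers of B cells also differed, as 11 of 12 read higher in the knockout with list means of 9.49 to 10.44 against 8.35 to 8.86, and their part in these values was not tested.

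The 7 transcription factors held the 3 largest negative differences of the 30 genes, those of Fosl2, Arntl and Gabpa, and each was larger in size among males than among females. Fosl2 encodes the AP-1 subunit Fra-2, on chromosome 5 from 32438906 to 32460212. It read 10.09, 8.67, 8.17 and 6.63 in the knockout, and 9.56, 9.45, 9.44 and 9.51 in the wild type. The wild-type arrays were nearly equal, with an SD of 0.057 against 1.43 in the knockout, where Mim1-5 lay above all of them and the other 3 below. The difference was -1.10 ± 0.54 (SE), with an unadjusted p of 0.069 and an adjusted p of 0.393 in limma. It was -0.12 in females and -2.08 in males. The second Fosl2 feature differed by 0.64, with Mim2-3 its highest array.

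Arntl encodes BMAL1, the transcription factor that with CLOCK drives the circadian oscillator, on chromosome 7 from 120424163 to 120439107. It read 8.14, 10.18, 7.19 and 5.97 in the knockout and 8.71, 9.20, 8.76 and 8.92 in the wild type. The knockout supplied the highest array, Mim1-6, and the 3 lowest. Its range over the 8 arrays, 4.21, was wider than that of 97.4% of genes in its brightness class and the widest of the 30. The genotype difference of -1.02 ± 0.67 (SE, adjusted p = 0.515 in limma) was the balance of 0.43 in females and -2.48 in males. A second Arntl feature read 7.33, 9.41, 6.81 and 7.28 in the knockout and 8.85, 8.53, 7.67 and 8.15 in the wild type. It differed by -0.60 ± 0.53 (SE), with Mim1-6 again highest but Mim2-3 near Mim1-5, so the low value of Mim2-3 was seen with 1 of 2 features.

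BMAL1 and CLOCK activate Nr1d1 and Nr1d2, whose protein products REV-ERB-alpha and REV-ERB-beta repress Arntl through short elements near its start. The stretch from 30 bases before to 50 after an annotated start is shown because clock genes were measured on the same arrays. It is RefSeq sequence of GRCm38.p6, plus strand, chr7:113207481-113207560, and capitals mark 2 matches to core letters of these elements. Arntl has 2 promoter windows, and the one shown was chosen by its number of such matches.
Arntl: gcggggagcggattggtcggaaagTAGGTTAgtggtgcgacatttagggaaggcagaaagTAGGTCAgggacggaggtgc
Counting the start as 1 and the base before it as -1, the letters TAGGTTA begin at position -6 and TAGGTCA at position 31. Searched on both strands of 32851 promoter windows of 300 bases, TAGGTCA was found in 2.606%, TAGGTTA in 1.44% and both in 0.049%. A match is a description of letters and says nothing of binding in these spleens.

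Nr1d1 stood at separate levels, each seen in both genotypes, with 11.14, 8.44, 8.68 and 8.35 in the knockout and 10.97, 11.33, 8.55 and 11.07 in the wild type. Its difference of -1.32 ± 0.79 (SE, adjusted p = 0.479 in limma) was the largest in size of the 13 clock genes measured. It was 0.03 in females and -2.68 in males. Mim1-6, both Mim2 arrays and WT-3 read near the same low level. Arntl was highest in Mim1-6 but lowest in the Mim2 animals, so Arntl did not mirror Nr1d1 across these 4 arrays. Clock read 8.31, 9.14, 6.83 and 7.10 against 8.31, 9.60, 9.02 and 9.29, lowest on both Mim2 arrays. Its difference of -1.21 ± 0.53 (SE) had an unadjusted p of 0.046 and an adjusted p of 0.355 in limma. Of 13 clock genes measured, 1 was lower at an unadjusted p under 0.05 and 0 were higher. All named genes at that threshold amount to 6.62% lower and 7.7% higher. The median of the 13 was 0.06 in females and -1.19 in males. Bhlhe40, a repressor of the same loop, and Tef, an output factor, differed by -0.94 and -0.54. The sources used here do not give the hour at which the spleens were taken.

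**Figure D3:**
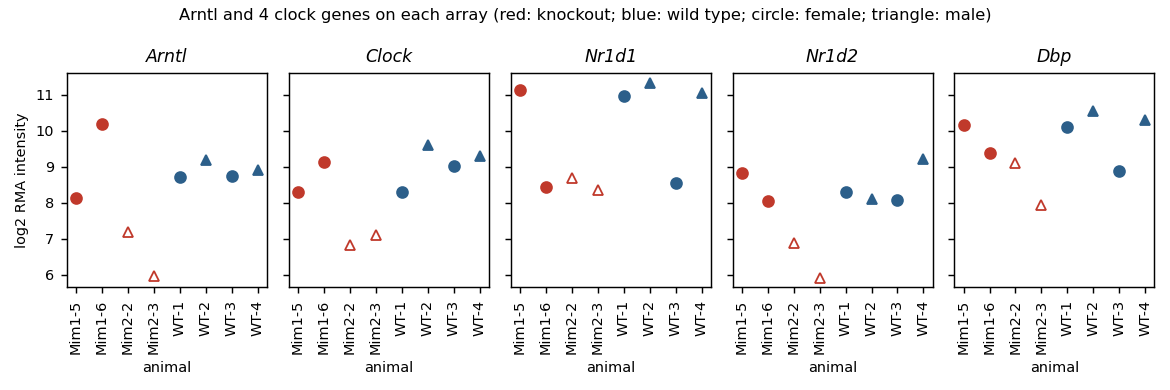
Log2 RMA intensity (vertical axis) of Arntl, Clock, Nr1d1, Nr1d2 and Dbp on each of the 8 arrays (horizontal axis), red for knockout, blue for wild type, circles for labelled females, triangles for labelled males and open symbols for the Mim2 animals. Arntl spans 5.97 to 10.18 within the knockout and 8.71 to 9.20 within the wild type, and Nr1d1 lies at 8.35 to 8.68 on 4 arrays from both genotypes and at 10.97 to 11.33 on the others.

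Gabpa encodes the DNA-binding subunit of the ETS-family factor GABP. It lies on chromosome 16 from 84835368 to 84864023 in MM9, with 119879 bases between the end of BIC and its start. It read 7.70, 8.95, 6.86 and 7.47 in the knockout and 8.22, 8.55, 9.22 and 8.16 in the wild type. Of the knockout arrays 3 lay below every wild-type array, and Mim1-6 did not. The difference was -0.79 ± 0.40 (SE), with an unadjusted p of 0.082 and an adjusted p of 0.416 in limma. All 3 Gabpa features differed in the same direction, the others by -0.45 and -0.81.

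Ets1 and Meis1 read higher in the knockout by similar amounts. Ets1 encodes the founding ETS factor, abundant in resting lymphocytes, and read 6.95, 6.37, 7.75 and 7.61 in the knockout and 6.53, 6.44, 6.88 and 5.98 in the wild type. The Mim2 arrays were the highest of the 8, Mim1-5 came next and Mim1-6 lay within the wild type. Its difference of 0.71 ± 0.38 (SE, adjusted p = 0.432 in limma) was -0.04 in females and 1.47 in males. Meis1 encodes a homeodomain cofactor of HOX proteins in haematopoietic stem cells and megakaryocytes. It read 7.35, 8.02, 7.89 and 6.96 in the knockout and 7.31, 6.61, 7.71 and 5.48 in the wild type. WT-4 was lowest by more than 1 on the log2 scale, and the other 7 arrays overlapped. Its difference was 0.78 ± 0.42 (SE, adjusted p = 0.439 in limma), and all 3 features of Ets1 and of Meis1 differed in the positive direction. The sizes varied, since the other Ets1 features differed by 0.12 and 0.57 and the other Meis1 features by 0.98 and 0.13.

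Myb, a factor of immature blood cells, was the only gene of the 30 that reached the level of the random probes, on the array of Mim2-2. Its values of 5.47, 8.24, 5.04 and 6.15 in the knockout and 5.55, 5.89, 7.37 and 7.50 in the wild type scattered without regard to genotype or labelled sex. Its 3 features differed by -0.35, 0.40 and -0.79. Hbp1, a repressor of cell cycle genes, read 12.22, 12.23, 11.77 and 11.82 in the knockout against 12.17, 11.84, 12.03 and 11.23, with WT-4 lowest. Its difference was 0.20 ± 0.27 (SE), and its second feature differed by 0.71.

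Relatives of these factors of the ETS, AP-1, MYB and MEIS families gave 0 genes higher and 1 lower at an unadjusted p under 0.05. That was out of 19 measured, with 0 after adjustment in limma and a median of 0.06. All named genes at the unadjusted threshold amount to 7.7% higher and 6.62% lower. The 1 lower gene was Junb, an AP-1 partner of FOS proteins. It read 11.15, 11.98, 9.28 and 9.04 in the knockout and 12.06, 11.54, 12.24 and 12.24 in the wild type. The Mim2 arrays were lowest by more than 1 on the log2 scale. Its difference was -1.66 ± 0.47 (SE, adjusted p = 0.269 in limma). Pbx2 and Meis2, which form complexes with MEIS or HOX proteins, differed by -0.68 and 0.76.

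By their brightest features the SMAD genes among the 30 differed little. Smad2, a mediator of TGF-beta and activin signals, read 8.85, 9.39, 8.14 and 8.22 in the knockout and 9.24, 8.74, 8.29 and 9.07 in the wild type. Both Mim2 arrays were again lowest, and the difference was -0.19 ± 0.36 (SE). Smad5, a mediator of BMP signals, read 9.15, 8.81, 9.38 and 8.79 against 9.02, 9.19, 9.62 and 8.41, with a difference of -0.03 ± 0.33 (SE). Its 5 features did not share a direction. A second feature read 8.64, 8.61, 9.05 and 9.03 in the knockout and 7.93, 8.39, 7.39 and 7.15 in the wild type, without overlap. It differed by 1.12, with an unadjusted p of 0.009 and an adjusted p of 0.281 in limma. The other 3 features differed by -0.43, 0.48 and 0.44.

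Partners of these SMADs tended to lower values in the knockout. Of 18 measured, 15 were lower and 3 higher, with 4 lower and 0 higher at an unadjusted p under 0.05. After adjustment in limma 0 passed, and the median was -0.63. Of all named genes 53.9% were above 0, and 6.62% were lower and 7.7% higher at that unadjusted threshold. In females alone the median was -0.06 and in males -0.87. Bmpr1a, a BMP receptor, read 6.21, 6.94, 5.93 and 5.02 in the knockout and 7.59, 7.76, 7.67 and 6.67 in the wild type. Only Mim1-6 overlapped, with WT-4. The difference was -1.40 ± 0.38 (SE, adjusted p = 0.266 in limma). Smad3, the closest relative of Smad2, differed by -1.09 ± 0.32 (SE, adjusted p = 0.274) and the receptor gene Bmpr2 by -1.16 ± 0.51 (SE, adjusted p = 0.357), both from limma. The mammary marker mean was likewise low on the Mim2 arrays, and its part in these values was not tested.

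Among 4 genes of corepressors and chromatin proteins, 3 read higher in the knockout. Tle4 encodes a Groucho-family corepressor that acts in lymphocyte and myeloid development, on chromosome 19 from 14522561 to 14672473. It read 7.31, 7.55, 8.19 and 7.41 in the knockout and 6.69, 6.56, 7.19 and 6.87 in the wild type. No array overlapped, with Mim1-5 and WT-3 the nearest of each side. The difference was 0.79 ± 0.32 (SE), with an unadjusted p of 0.034 and an adjusted p of 0.334 in limma. The second Tle4 feature differed by -0.01, with its arrays fully mixed, so the difference was seen with 1 of 2 features.

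Phf17 (now Jade1) encodes a subunit of histone acetyltransferase complexes. It read 9.28, 8.54, 8.60 and 8.36 in the knockout and 8.45, 8.15, 7.37 and 7.69 in the wild type. Only Mim2-3 lay below a wild-type array, WT-1. The difference was 0.78 ± 0.35 (SE, adjusted p = 0.364 in limma), larger in females (0.998) than in males (0.56). Its other 3 features differed by -0.30, -0.23 and -0.27, and the mean over all 4 differed by -0.006.

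Rcor1, the scaffold of the CoREST complex, read 8.69, 8.50, 8.51 and 9.31 in the knockout and 9.26, 9.26, 8.39 and 10.31 in the wild type. WT-4 stood highest and WT-3 lowest, so the wild type enclosed the knockout, and the difference was -0.55 ± 0.38 (SE). Zfp652, a zinc finger repressor, ranged from 9.05 to 9.72 in the knockout and from 9.09 to 9.47 in the wild type, and its difference of 0.09 ± 0.29 (SE) lay well within its error. Of 16 partners of these proteins 1 was higher and 2 were lower at an unadjusted p under 0.05. All named genes at that threshold amount to 7.7% higher and 6.62% lower. After adjustment in limma 0 of the 16 passed, and their median was -0.08. Phf15, the closest relative of Phf17, was the 1 higher, by 1.08 ± 0.30 (SE, adjusted p = 0.266 in limma), at 8.80, 8.97, 9.15 and 9.73 in the knockout and 8.27, 8.41, 7.71 and 7.98 in the wild type. The genotypes did not overlap. Ing4, of the same acetyltransferase complexes, and the Groucho gene Tle2 differed by -1.18 and -1.04.

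The 3 cytokine receptor chains showed no separation by genotype. Il13ra1, a chain of the interleukin 13 receptor, read 5.80, 6.63, 6.24 and 5.47 in the knockout and 6.86, 5.56, 6.93 and 6.49 in the wild type, with Mim2-3 and WT-2 lowest. Its difference was -0.43 ± 0.36 (SE, adjusted p = 0.612 in limma). Il17rb, a receptor chain for interleukin 25, read 6.01, 7.08, 6.03 and 6.29 against 5.40, 6.78, 6.40 and 6.50. Ifngr1, the ligand-binding chain of the interferon gamma receptor, read 8.57, 8.0, 8.90 and 8.36 against 8.69, 7.74, 8.67 and 8.99. The lowest array was wild-type for both genes, and their differences were 0.08 ± 0.40 (SE) and -0.06 ± 0.37 (SE). Among 11 partners of these receptors 0 were higher and 1 lower at an unadjusted p under 0.05, with 0 after adjustment in limma. All named genes at the unadjusted threshold amount to 7.7% higher and 6.62% lower. The 1 lower partner was Il17re, an epithelial receptor chain, at 8.89, 9.06, 5.89 and 5.83 in the knockout and 8.55 to 9.68 in the wild type. It was lower on the Mim2 arrays alone. Stat6, which carries interleukin 13 signals, and the kinase gene Jak1 differed by -0.91 and 0.53.

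Both regulators of mTOR read slightly higher in the knockout. Rictor, the defining subunit of mTOR complex 2, read 7.41, 7.16, 7.04 and 7.39 in the knockout and 6.34, 6.71, 6.85 and 7.21 in the wild type. WT-4 lay within the knockout and the other wild-type arrays below it. Its difference was 0.47 ± 0.29 (SE, adjusted p = 0.495 in limma), and 5 of its 6 features were above 0, the exception at -0.25. Rheb, the GTPase that switches on mTOR complex 1, read 10.46, 10.11, 10.19 and 9.97 against 10.20, 9.64, 10.08 and 9.90, which overlap, and differed by 0.23 ± 0.26 (SE). Of 15 partners 0 were higher and 1 lower at an unadjusted p under 0.05, with 0 after adjustment in limma and a median of -0.18. All named genes at the unadjusted threshold amount to 7.7% higher and 6.62% lower. Akt1s1, an inhibitor in mTOR complex 1, was the 1 lower partner. It read 10.28, 10.79, 10.31 and 9.65 in the knockout and 11.49, 11.74, 11.21 and 11.21 in the wild type, without overlap, and differed by -1.15 ± 0.32 (SE, adjusted p = 0.268 in limma). Deptor, another inhibitor, and Mlst8, a shared subunit, differed by -1.76 and -1.10, with their lowest values on the Mim2 arrays.

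Of the 3 growth suppressors, Pdcd4 had the smallest p of the 30 genes. Pdcd4 encodes an inhibitor of the translation initiation helicase eIF4A and is also a well-studied target of miR-21, and it lies on chromosome 19 from 53977885 to 54004341. It read 11.69, 11.26, 12.15 and 11.91 in the knockout and 10.86, 11.28, 11.18 and 10.37 in the wild type. The knockout arrays were higher except that Mim1-6 lay just below WT-2. The difference was 0.83 ± 0.33 (SE), with an unadjusted p of 0.033 and an adjusted p of 0.333 in limma, and was 0.45 in females and 1.20 in males. The second Pdcd4 feature read 9.73, 8.93, 9.47 and 9.44 in the knockout and 8.82, 8.44, 8.98 and 8.58 in the wild type, a difference of 0.68 (unadjusted p = 0.046 in limma). Here too Mim1-6 was the 1 knockout array that overlapped, so both features of Pdcd4 gave nearly the same picture.

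Trp53inp1, a p53-induced gene that promotes cell death and autophagy, read 9.36, 9.05, 9.38 and 9.70 in the knockout and 9.19, 8.95, 8.90 and 8.46 in the wild type. Mim1-6 alone lay within the wild type, and the difference was 0.50 ± 0.30 (SE, adjusted p = 0.478 in limma). Its other 2 features differed by -0.11 and -0.36. Ptprj, the receptor phosphatase CD148 of leukocytes and epithelia, read 9.97, 10.03, 8.80 and 8.43 in the knockout and 9.78, 10.00, 9.29 and 10.49 in the wild type. The Mim2 arrays were the lowest of the 8 and the Mim1 arrays were among the highest, so that the difference of -0.58 ± 0.45 (SE, adjusted p = 0.579 in limma) joined 0.47 in females with -1.63 in males.

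The last 4 genes act in the cytoskeleton, in transport and as a phosphatase. Dusp14, a MAP kinase phosphatase that restrains T cell receptor signalling, read 9.76, 9.85, 9.89 and 10.87 in the knockout and 9.55, 9.76, 9.99 and 9.70 in the wild type. Mim2-3 stood alone above all other arrays, and the difference was 0.34 ± 0.32 (SE). Kpna1, an importin alpha, read 6.50, 6.92, 7.72 and 6.99 against 6.96, 5.61, 6.79 and 7.32, a difference of 0.37 ± 0.44 (SE) with wide scatter in both genotypes. Rhoa, the small GTPase of the actin cytoskeleton, read 12.79, 12.76, 12.63 and 12.63 against 12.86, 12.35, 13.00 and 13.05, with WT-2 lowest. Picalm, a clathrin assembly protein, read 9.04, 9.50, 9.31 and 9.41 against 9.69, 9.39, 9.49 and 9.54, with Mim1-5 lowest. The differences of Rhoa and Picalm were -0.11 ± 0.28 (SE) and -0.21 ± 0.27 (SE). Of the 4 Picalm features 1 differed by -1.04 (adjusted p = 0.314 in limma), and the others by -0.10 to -0.21. Among 15 relatives of RhoA, clathrin adaptors and importins 1 was higher and 4 were lower at an unadjusted p under 0.05. All named genes at that threshold amount to 7.7% higher and 6.62% lower. After adjustment in limma 0 of the 15 passed. Arhgdib, a regulator of small GTPases in blood cells, read 12.35, 12.56, 12.56 and 12.67 in the knockout and 11.38 to 11.70 in the wild type, and differed by 1.02 ± 0.26 (SE, adjusted p = 0.262 in limma). Its widely expressed relative Arhgdia differed the other way, by -0.89 ± 0.31 (SE, adjusted p = 0.304 in limma), and Rhob by -1.13 ± 0.37 (SE, adjusted p = 0.291 in limma).

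The sexes were compared because the Mim2 arrays stood apart. The genotype difference was larger in size in males than in females for 21 of the 30 genes, 70.0%, against 67.7% of all named genes. Both Mim2 arrays were the highest pair of the 8 for Ikbke, Trp53inp1, Ets1 and Pdcd4, and the lowest pair for Tab2, Fosl2, Smad2, Ptprj, Gabpa and Arntl. These 10 genes are 33.3% of the 30, and 30.7% of all named genes had both Mim2 arrays at one end. The genotype by sex interaction had an unadjusted p under 0.05 in limma for Ptprj (0.005), Ikbke (0.012), Arntl (0.019) and Ets1 (0.026). That is 13.3% of the 30 against 13.6% of all named genes, and 0 passed after adjustment, with adjusted p of 0.201, 0.249, 0.279 and 0.306. In females alone the 30 genes had a median of 0.004 and in males of 0.26. None of these shares stood far from that of all named genes, and sex and name prefix cannot be told apart here.

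**Figure D4:**
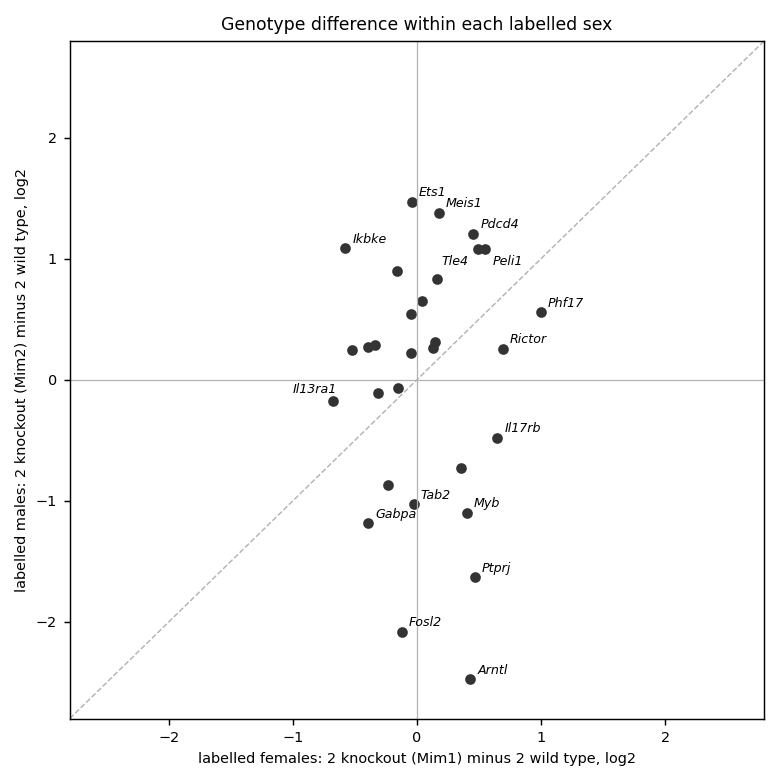
Knockout minus wild type on the log2 scale within the labelled females (horizontal axis, the Mim1 animals against WT-1 and WT-3) and within the labelled males (vertical axis, the Mim2 animals against WT-2 and WT-4), 1 point for each of the 30 genes, with equality as a dashed line. The male values run from -2.48 for Arntl to 1.47 for Ets1, and the female values from -0.68 for Il13ra1 to 0.998 for Phf17.

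Features of the same gene were compared with each other. The 30 genes have 75 features, and 25 genes have more than 1. In 13 of these all features differed in 1 direction, 6 in the positive and 7 in the negative, and in 12 the features disagreed in sign. Those 12 were Ripk1, Fadd, Trp53inp1, Fosl2, Myb, Smad5, Peli1, Rictor, Il17rb, Tle4, Dusp14 and Phf17. Of the 75 features 8 were at an unadjusted p under 0.05, against 13.9% of all features, and 0 after adjustment in limma. Of the 3 genes at that threshold by their brightest feature, Pdcd4 was the one whose features were all on the same side.

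The marker lists of other cell types spread more widely over the arrays than the mean of the 30 genes did. The mean of the 30 was 8.79, 8.86, 8.70 and 8.51 in the knockout and 8.72, 8.54, 8.78 and 8.62 in the wild type, with both genotypes mixed. That mean joins 16 positive and 14 negative differences, which offset each other. Its narrow span therefore does not describe the single genes, of which Arntl ranged over 4.21. The mean of 10 T cell markers was higher on every knockout array (8.35 to 9.19 against 7.59 to 8.12). All 10 differences were positive, and 5 of these genes were higher without overlap. The mean of 8 neutrophil markers was lower on every knockout array (7.56 to 8.30 against 8.50 to 8.67). There 7 differences were negative and 1 positive, and 2 genes were lower without overlap. The 13 best-known targets measured, compared for scale, had 6 differences above and 7 below 0, with a median of -0.22. At an unadjusted p under 0.05 in limma 2 of them were higher and 4 lower, against 7.7% and 6.62% of all named genes. The genotypes did not overlap for 2 higher and 1 lower of the 13, against 5.27% and 2.56% of all named genes. After adjustment 0 passed. The smallest p values there were those of Pik3r1 (-1.64), Tspan14 (-0.93) and the adaptor gene Sla (1.30), each with an adjusted p of 0.262 or more in limma.

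**Figure D5:**
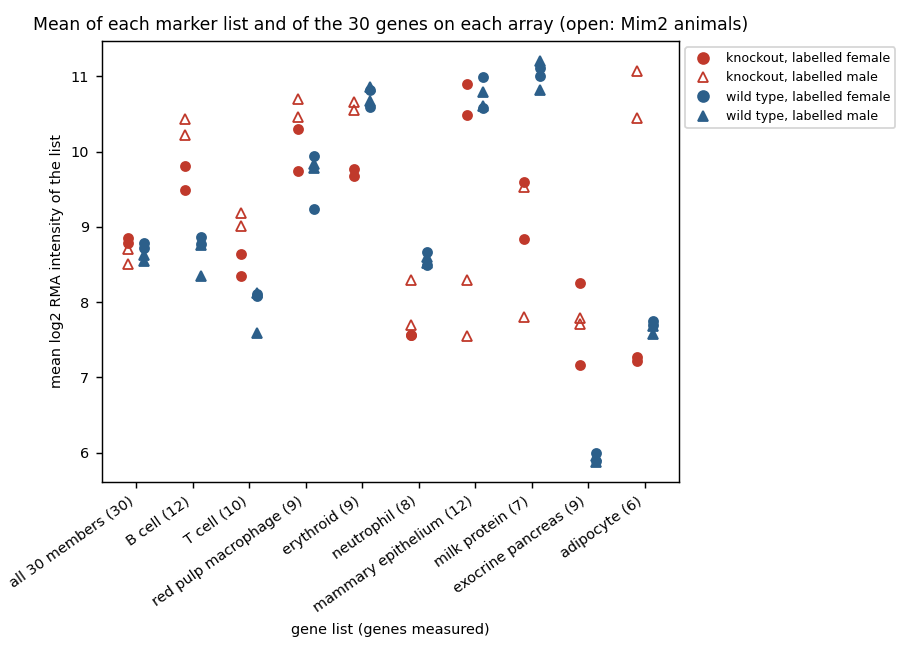
Mean log2 RMA intensity (vertical axis) of the 30 genes and of 9 marker lists (horizontal axis, with the number of genes measured) on each array, red for knockout, blue for wild type, circles for labelled females, triangles for labelled males and open symbols for the Mim2 animals. The mean of the 30 genes stays between 8.51 and 8.86 on all arrays, while the mean of mammary markers ranges from 7.55 to 10.99 and that of adipocyte markers from 7.21 to 11.07.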

How the data were processed

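The authors deposited 1 table per array with a linear RMA intensity per feature, a method (background correction, normalization, probe summary) named, without a version, per the submitters' processing notes. Per the file headers, 44155 of 44170 features rest on 3 probes and positions are those of MM9. A deposited standard error score per feature, of unstated making, entered no test. The deposited series table holds 21856 of the features with equal intensity values (relative tolerance 1e-05).

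Values were transformed to log2 without further normalization. Genes were matched by the tables' own names, and 21583 of 24203 Entrez numbers matched GRCm38.p6 for symbols. The 5000 random probes gave the background. Knockout minus wild type was fitted in R 4.3.3 by limma 3.58.1 (lmFit, eBayes) with labelled sex as an additive term, two-sided, Benjamini-Hochberg adjusted over all features, threshold 0.05, and an interaction fit gave the sexes. The scripts were tested on simulated data. The genes and lists were chosen with earlier results of these data known. All 30 genes are named, with values per array for up to 3 per role with the smallest p, those whose features disagree and those at background, and up to 3 genes per pathway list. Values per array of the remaining genes, and Nr1d1, Nr1d2 and Dbp, were added after they were seen. Tab3, Fli1, Cebpb, Cpb1 and Cfd matched no name in the tables. Alternatives covered the source of values, normalization, dim features, variance model, array weights, covariates, floor, features per gene and left-out arrays. Slide or scan blocks were not run, since none is named in the tables used here.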

Additional observations from a re-analysis of the deposited data

Results flagged for a closer look

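Ripk1 in WT-4 had a log2 intensity of 7.24, far from the other wild-type arrays at 8.31 to 8.44. Dusp14 in Mim2-3 read 10.87, far from the other knockout arrays at 9.76 to 9.89. Both were noted because the gap to the nearest array exceeded Dixon's 95% limit for 4 samples. Of 60 groups of 4 arrays examined, 2 were noted, and chance alone gives about 1 in 20.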

How the results depend on the processing

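Across 19 alternatives 0 of the 30 genes passed after adjustment in limma. The number of features called was 0 in the fit as reported and in the alternatives other than trend and robust variance, which called 16. The number of genes at an unadjusted p under 0.05 was 3 as reported and went to 0 with the mammary mean as a further term and 0 without both Mim2 arrays, and it ran from 0 to 5 when 1 array was left out. Those alternatives hold fewer arrays or a term that itself differs between the genotypes. Peli1, Pdcd4 and Tle4 stayed above 0 in all 19 alternatives and had an unadjusted p under 0.05 in 10, 12 and 10 of them. Of the 30 genes 15 kept their sign throughout and 15 lost it at least once, and 0 had an unadjusted p under 0.05 in every alternative. Without both Mim2 arrays no labelled-male knockout is left. The fitted difference then equals that of the labelled females, so it repeats that comparison and is no separate check. There Arntl was 0.43, Ikbke -0.58, Ptprj 0.47, Smad2 0.35 and Ets1 -0.04, each opposite in sign to the value reported, while Gabpa was -0.39 and Phf17 0.998. The median of the 30 ran from 0.004 to 0.16. The series table held 26 of the 30 genes. The number of features at an unadjusted p under 0.05 was 6122 as reported, 2726 without both Mim2 arrays and 2808 with the mammary term, and no scaling moved the median of all features by 0.1. No paired analysis was possible because the animals' names give the 2 genotypes no shared pairs. Levels near the random probes, as for Myb, limit what a difference there means.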
